A study of Homo sapiens with 15 samples.

Results

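The genes described here are the nuclear genes of the mitochondrial respiratory chain, read in HEK293T and HuCCT1 cells. They are the protein-coding genes whose symbols begin with NDUF, UQCR, ATP5 or COX followed by a digit, with SDHA to SDHD, that stand in both deposited count tables. The HEK293T table holds 107 such genes, and 100 of them are in both tables. By complex, 44 belong to complex I, 4 to complex II, 9 to complex III, 25 to complex IV and 18 to complex V. The other 7 (ATP5IF1, COX4I2, COX6A2, COX8C, NDUFA6 and the read-through genes ATP5MF-PTCD1 and NDUFC2-KCTD14) are in the HEK293T table alone and were not compared.

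Complexes I to IV of the inner mitochondrial membrane pass electrons from NADH and succinate through coenzyme Q and cytochrome c to oxygen, and complexes I, III and IV also pump protons. Complex V, the ATP synthase, uses the return of those protons to make ATP. Complexes I, III, IV and V hold subunits from both the nuclear and the mitochondrial genome, whereas complex II is nuclear alone, and many nuclear genes with these symbols encode assembly factors that do not stay in the finished enzyme.

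Ribosome-depleted total RNA was sequenced from HEK293T, a line of human embryonic kidney origin, and HuCCT1, a bile duct carcinoma line. CRISPR-Cas9 knockout of SNRPD2, which encodes the spliceosomal Sm protein SmD2, was labelled in both lines, and knockout of PUS7, an RNA pseudouridine synthase, in HEK293T. Every group had 3 libraries: SNRPD2KO, PUS7KO and Ctrl in HEK293T, and SNRPD2KO and Ctrl in HuCCT1. The labels do not say what the Ctrl cells received, whether a group labelled a knockout is a clone or a pool, or whether replicates are separate cultures, so p-values measure the spread between these libraries, which may be technical.

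The RNA of the targeted genes was read first. SNRPD2 RNA was higher in the libraries labelled SNRPD2KO than in Ctrl: 280.4 ± 31.9 against 182.0 ± 13.6 CPM (counts scaled to library size; SD, n = 3; adjusted p = 4.9e-05, edgeR) in HEK293T and 288.1 ± 29.4 against 154.5 ± 7.30 in HuCCT1 (1.8e-06). In PUS7KO it was also above Ctrl, at 260.5 ± 22.6 CPM (SD, n = 3), a log2 difference of 0.52 (adjusted p = 3.4e-04, edgeR). The SNRPD2 level of the libraries labelled SNRPD2KO goes against the label at the level of RNA. They are therefore called the libraries labelled SNRPD2KO, and every direction below is that of the label. Ctrl and PUS7KO are names from the labels too. The labels assign the count columns lettered C to SNRPD2KO, P to PUS7KO and S to Ctrl. Whether that assignment is right was not tested. PUS7 RNA was 16.0 ± 2.24 CPM in PUS7KO and 26.5 ± 0.510 in HEK293T Ctrl (adjusted p = 6.7e-05, edgeR). Totals ran from 7944276 to 11270267 counts per HEK293T library and from 13776166 to 16795618 per HuCCT1 library. KRT7 and KRT19, keratins of bile duct epithelium, were at 1864.4 CPM or more in every HuCCT1 library and at or under 0.114 CPM in HEK293T, and PTPRC and CD3E, markers of blood cells, were at or under 0.343 CPM everywhere. The members took 0.942% to 1.04% of all counts in HEK293T and 0.729% to 0.86% in HuCCT1, where the lowest value was that of SNRPD2KO replicate 1.

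The promoters of 6 members are shown, each called in the same direction in the 3 comparisons with Ctrl, since the results below turn on them. They were chosen after their values were seen. Each runs from 250 bases before to 30 bases after the RefSeq start (GRCh38.p14), 5′ to 3′ on the gene's own strand. NDUFV1 lies at chr11:67606686-67606965 (plus strand), UQCRC1 at chr3:48609617-48609896 (minus), SDHA at chr5:218070-218349 (plus) and ATP5MC1 at chr17:48892537-48892816 (plus), and these 4 were higher. NDUFAF1 at chr15:41402467-41402746 (minus) and NDUFAB1 at chr16:23596287-23596566 (minus) were lower. Capitals mark matches to motifs of factors known for respiratory genes, searched on both strands: GCGC, any base and TGCGC for NRF1, CCGGAAG for ETS factors such as GABPA, and AAGATGG for YY1.
NDUFV1: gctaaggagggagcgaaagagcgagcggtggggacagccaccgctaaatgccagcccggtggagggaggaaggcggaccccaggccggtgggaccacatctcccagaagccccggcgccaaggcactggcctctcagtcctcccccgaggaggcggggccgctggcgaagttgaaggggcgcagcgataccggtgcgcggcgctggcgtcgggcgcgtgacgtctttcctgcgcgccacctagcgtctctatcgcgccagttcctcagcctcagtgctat
UQCRC1: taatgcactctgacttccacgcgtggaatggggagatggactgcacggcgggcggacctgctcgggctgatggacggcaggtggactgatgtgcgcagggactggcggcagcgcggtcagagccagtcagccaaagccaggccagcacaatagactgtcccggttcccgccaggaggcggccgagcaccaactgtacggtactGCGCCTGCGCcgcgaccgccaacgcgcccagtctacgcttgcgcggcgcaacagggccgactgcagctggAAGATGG
SDHA: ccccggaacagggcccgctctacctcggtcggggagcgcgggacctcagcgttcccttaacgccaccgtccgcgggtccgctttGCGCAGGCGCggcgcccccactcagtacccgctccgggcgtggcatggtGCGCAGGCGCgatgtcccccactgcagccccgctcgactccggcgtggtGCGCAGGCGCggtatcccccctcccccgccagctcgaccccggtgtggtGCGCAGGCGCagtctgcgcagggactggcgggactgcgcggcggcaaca
ATP5MC1: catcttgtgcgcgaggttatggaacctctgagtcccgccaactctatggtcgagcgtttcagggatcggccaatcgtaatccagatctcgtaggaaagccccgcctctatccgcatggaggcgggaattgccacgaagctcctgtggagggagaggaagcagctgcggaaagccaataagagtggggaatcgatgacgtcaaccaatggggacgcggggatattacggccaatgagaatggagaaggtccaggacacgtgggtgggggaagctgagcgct
NDUFAF1: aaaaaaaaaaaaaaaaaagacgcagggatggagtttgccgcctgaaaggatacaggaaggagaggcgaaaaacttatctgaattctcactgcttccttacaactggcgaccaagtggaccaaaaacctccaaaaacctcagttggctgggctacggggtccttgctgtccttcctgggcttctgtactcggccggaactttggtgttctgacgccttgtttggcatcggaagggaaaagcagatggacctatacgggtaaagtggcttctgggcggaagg
NDUFAB1: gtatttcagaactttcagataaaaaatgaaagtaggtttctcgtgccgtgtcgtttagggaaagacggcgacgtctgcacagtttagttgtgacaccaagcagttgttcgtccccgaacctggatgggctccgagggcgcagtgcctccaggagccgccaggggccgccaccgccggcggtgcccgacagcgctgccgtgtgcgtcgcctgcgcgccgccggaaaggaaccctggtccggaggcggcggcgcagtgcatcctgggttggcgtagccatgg

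The SDHA window held 4 NRF1 matches, which began 166, 117, 68 and 19 bases before the start. UQCRC1 held 1 NRF1 match, 47 bases before the start, and 1 YY1 match 23 bases after it. None of the matches overlapped another motif. The other 4 windows held none of these letters. RefSeq promoters were matched for 81 of the 100 members. Among those 81 windows, 23.5% held the NRF1 letters, 29.6% the ETS letters and 16% the YY1 letters. Of all 15843 protein-coding promoters in the table, the shares were 8.51%, 13.9% and 5.57%. By complex, NRF1 letters stood in 7 of 38 windows of complex I, 2 of 3 of complex II, 4 of 7 of complex III, 2 of 20 of complex IV and 4 of 13 of complex V. A match is a description of letters and not a shown site.

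Levels between genes are compared per kilobase (kb) of the longest annotated transcript, so that they rest on that length. In the HEK293T Ctrl libraries the highest member was UQCRH, the hinge subunit of complex III, at 583.2 CPM per kb, followed by NDUFA1 at 567.8, NDUFS5 at 502.8 and ATP5F1B, the catalytic beta subunit of the ATP synthase, at 309.9. In HuCCT1 Ctrl UQCRH was again first at 572.5 CPM per kb, followed by ATP5PD at 400.4, COX8A at 383.3 and ATP5F1B at 349.5. By complex, the median per-kb level in HEK293T Ctrl was 21.9 for complex I, 10.2 for II, 42.0 for III, 27.1 for IV and 89.9 for V. The HuCCT1 Ctrl medians were 39.6 for complex I, 31.3 for III, 31.8 for IV and 63.5 for V, and the 4 complex II genes ran from 9.47 to 67.2. These sets differ in make-up, so their medians do not compare subunits with subunits. The 44 genes of complex I include 8 assembly factors, and the 25 of complex IV include 9 assembly factors and 5 isoform genes. The complex V set holds no gene counted as an assembly factor. The HEK293T medians also include COX5B, NDUFB10 and SDHB, whose low counts, given next, are not read as absent RNA.

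Several subunits that every chain needs were listed at or near 0. COX5B, a subunit of complex IV, had 1 count over the 9 HEK293T libraries and 10125 over the 6 HuCCT1 libraries, and NDUFB10, a subunit of complex I, had 0 and 8276. A count of 0 in the smallest HEK293T library allows up to 3 counts, or 0.378 CPM, by counting error alone. NDUFB9 had 183 counts in HEK293T and 17155 in HuCCT1. SDHB, the iron-sulfur subunit of complex II, had 277 HEK293T counts, of which 243 lay in PUS7KO replicate 1, against 6914 in HuCCT1. NDUFS3, NDUFA3 and NDUFA7 had at most 15 counts in either line. Of 3730 protein-coding genes with at least 5000 HuCCT1 counts, 60 (1.61%) had at most 3 in HEK293T, and 2 of the 52 members with that many did. The HEK293T table also holds 0 counts on all 37 mitochondrially encoded genes. Why these genes are at 0 was not tested, and a level near 0 here is not read as absent RNA. NDUFS1, which carries iron-sulfur clusters of complex I, and UQCRC2, a core subunit of complex III, varied widely within groups. NDUFS1 ran from 4.18 to 22.8 CPM over the HEK293T Ctrl libraries. UQCRC2 ran from 5.8 to 24.4 CPM there.

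**Figure D1:**
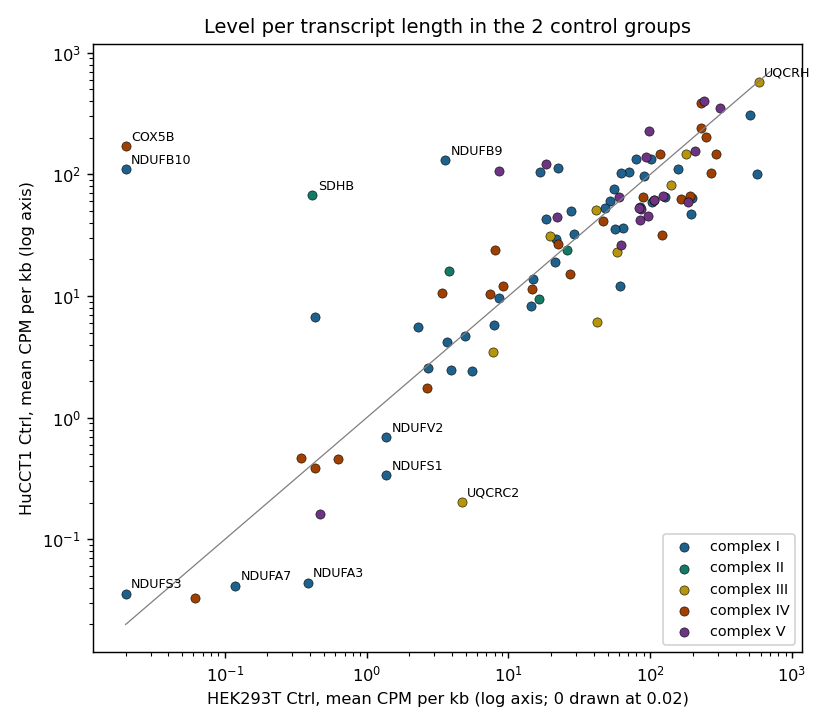
Mean level of each of the 100 members in the 3 HEK293T Ctrl (x) and 3 HuCCT1 Ctrl (y) libraries, as CPM per kb on log axes, coloured by complex, with 0 drawn at 0.02. COX5B, NDUFB10, NDUFB9 and SDHB stand far above the diagonal.

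In HEK293T, the question was which chain genes differ between each group labelled a knockout and Ctrl. A filter on low counts left 89 members for test, and each member was tested over all 15882 genes. Of the 89, 32 were higher and 21 lower in the libraries labelled SNRPD2KO (edgeR quasi-likelihood, adjusted p under 0.05), or 36.0% and 23.6%, where 26.9% and 26.4% of all genes tested were higher and lower, and 53.3% either. Among protein-coding genes alone the shares were 29.5% and 27.4%. The median log2 fold change was 0.10 over the members and 0.02 over all genes. The members' median was 0.18 without SNRPD2KO replicate 3, and 0.07 to 0.10 without any other 1 of the 6 libraries. PUS7KO gave 25 higher and 22 lower of 89 (28.1% and 24.7%), against 25.6% and 23.8% of all genes (49.4% either), and medians of 0.01 for both. The members' PUS7KO median changed sign without PUS7KO replicate 1 (-0.04) or any 1 Ctrl library (-0.03 to -0.02). The PUS7KO shares of the members are near this background. The groups did not overlap, with the libraries labelled SNRPD2KO above Ctrl, in 32 members (30.1% of all genes), and below in 26 (29.4%). The PUS7KO libraries lay above Ctrl in 24 members (29.5% of all genes) and below in 31 (27.7%). Both comparisons use the same 3 Ctrl libraries and are given side by side.

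By complex, the libraries labelled SNRPD2KO had 13 of 39 members of complex I higher and 9 lower, 1 of 3 and 1 of 3 in complex II, 4 of 9 and 2 of 9 in complex III, 7 of 21 and 6 of 21 in complex IV, and 7 of 17 and 3 of 17 in complex V. The complex medians were -0.02, 0.00, 0.16, -0.04 and 0.20 on the log2 scale. PUS7KO gave 11 and 12 of 39, 1 and 0 of 3, 2 and 1 of 9, 6 and 6 of 21, and 5 and 3 of 17, with medians of -0.09, -0.17, 0.12, -0.08 and 0.03. The summed CPM of complex I was 3033.3 ± 298.1 in the libraries labelled SNRPD2KO, 2728.2 ± 193.2 in PUS7KO and 2728.6 ± 113.7 in Ctrl (SD, n = 3), with ranges that overlapped. Complex V summed to 3332.2 ± 283.4, 3061.4 ± 168.4 and 3041.9 ± 80.7. Each complex held members of no call, and complexes I, III, IV and V held members of both directions in both comparisons.

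**Figure D2:**
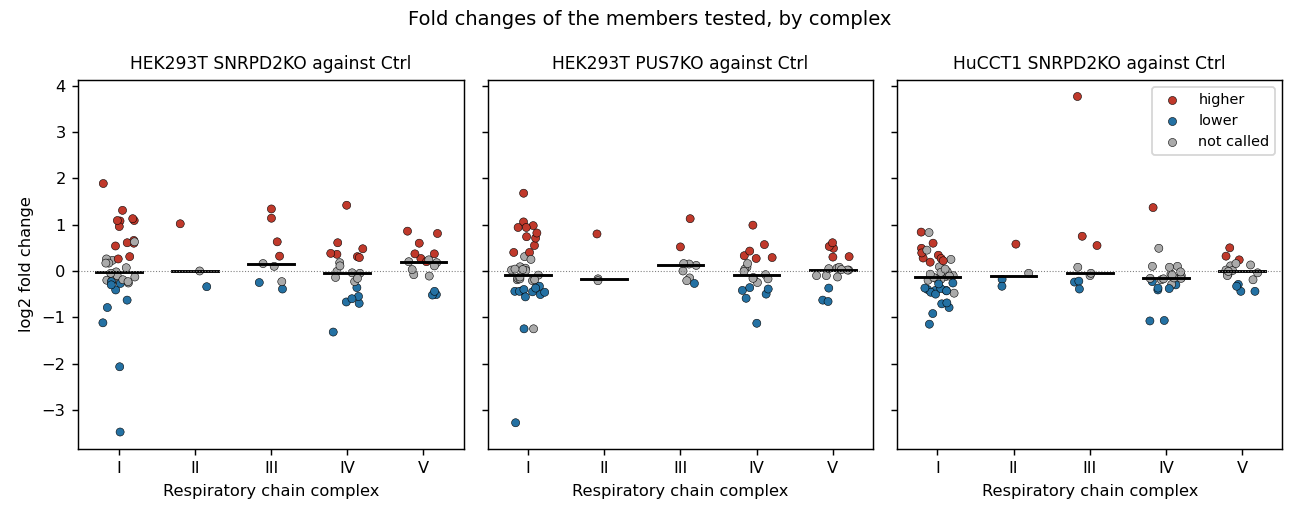
Log2 fold change of each member tested (points) by complex in 3 comparisons, with the complex median as a bar. Red points were higher and blue points lower at an adjusted p under 0.05, and each complex held grey points that did not pass.

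The nuclear core subunits of complex I include the carriers of its flavin and iron-sulfur clusters. NDUFV1 binds the flavin that takes electrons from NADH. It stood at 178.1, 184.0 and 157.3 CPM in the HEK293T libraries labelled SNRPD2KO, 147.9, 133.0 and 166.0 in PUS7KO and 51.8, 40.5 and 47.4 in Ctrl. Every library labelled SNRPD2KO or PUS7KO lay above every Ctrl library. Its log2 fold change was 1.89 ± 0.11 (SE; adjusted p = 2.0e-09) and 1.68 ± 0.11 (8.3e-09). NDUFS7 and NDUFS8, which also belong to the electron path, rose by 1.31 and 1.13 on the log2 scale in the libraries labelled SNRPD2KO and by 1.06 and 0.94 in PUS7KO. For NDUFS8 the values were 115.7, 112.1 and 95.1, then 109.2, 80.8 and 92.3, against 53.5, 45.0 and 48.4 CPM in Ctrl. NDUFS1 had no call in either comparison. NDUFV2, at most 2.6 CPM in any HEK293T library, fell by 2.07 in the libraries labelled SNRPD2KO (adjusted p = 0.011), and a minimum count of 30 leaves it untested.

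The supernumerary subunits of complex I, which surround the core, went both ways: 7 of 25 higher and 7 lower in the libraries labelled SNRPD2KO, and 5 and 10 in PUS7KO. NDUFV3 and NDUFB7 both rose by 1.09 in the former, and by 0.94 and 0.82 in PUS7KO. NDUFB7 stood at 79.0 to 99.5 CPM, 66.7 to 77.8 CPM and 41.2 to 43.4 CPM in the libraries labelled SNRPD2KO, PUS7KO and Ctrl. NDUFC2 and NDUFB3 fell by 0.79 and 0.63, and by 0.56 and 0.44 in PUS7KO. NDUFB9, which lies near 0 in this line, was at 0, 0.330 and 1.02 CPM, at 0.382, 0.501 and 0.833 and at 4.82, 6.62 and 5.34 in Ctrl. Among assembly factors, which help build complex I without staying in it, NDUFAF3 rose by 1.08 and 0.98 and NDUFAF2 by 0.61 and 0.71, whereas NDUFAF1 fell by 1.12 and 1.25. NDUFAF1 stood at 14.1 to 14.8, 11.7 to 15.2 and 29.1 to 33.8 CPM, and every library labelled SNRPD2KO or PUS7KO lay below every Ctrl library. NDUFAB1, the mitochondrial acyl carrier protein, fell by 0.27 (adjusted p = 0.033) and 0.45, and the first call was lost without any 1 of 5 of the 6 libraries, SNRPD2KO replicate 1 being the exception.

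In complex II, SDHA, the flavoprotein that oxidizes succinate, was at 19.8, 17.9 and 17.8 CPM, at 15.6, 14.9 and 17.5 in PUS7KO and at 8.79, 10.0 and 8.64 in Ctrl. It rose by 1.02 ± 0.13 and 0.80 ± 0.13 (adjusted p = 6.7e-06 and 9.5e-05). The membrane anchor SDHD fell by 0.34 in the libraries labelled SNRPD2KO (adjusted p = 0.0096), and its PUS7KO difference of -0.21 had an adjusted p of 0.095. The SDHD call was lost without SNRPD2KO replicate 2 or Ctrl replicate 2. SDHC, the other anchor, had no call in either, and SDHB was not tested. In complex III, UQCRC1, a core subunit of the matrix side, stood at 215.9, 214.2 and 191.8, then 176.8, 164.8 and 195.6, against 83.7, 80.6 and 80.8 CPM. It rose by 1.34 ± 0.09 (5.8e-09) and 1.13 ± 0.09 (4.3e-08). UQCRQ rose by 0.63 and 0.52. UQCRB fell by 0.39 in the libraries labelled SNRPD2KO. UQCRH fell by 0.25 and 0.27, which left-out libraries could end (SNRPD2KO replicates 1 and 3 and Ctrl replicates 1 and 2 for the first, PUS7KO replicate 2 and Ctrl replicate 1 for the second). UQCRC2 gave 1.14 ± 0.45 (adjusted p = 0.042) in the libraries labelled SNRPD2KO, where the groups overlapped. That call was lost without SNRPD2KO replicate 1 or 2 or Ctrl replicate 1 or 3 (adjusted p from 0.11 to 0.17), and by DESeq2 (0.19). In PUS7KO its difference of 0.15 became a call of 1.13 (adjusted p = 0.047) without Ctrl replicate 2.

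In complex IV, 3 assembly factors of 9 rose and 4 fell in the libraries labelled SNRPD2KO, and 2 subunits of 10 rose and 2 fell. In PUS7KO these were 3 and 3, and 1 and 3. COX16 fell by 1.32 ± 0.16 (adjusted p = 3.1e-06) and 1.13 ± 0.15 (1.6e-05): 6.44, 6.27 and 6.14, then 8.02, 7.85 and 5.62, against 16.1, 16.0 and 15.1 CPM. COX17, the copper chaperone of the complex, fell by 0.70 and 0.50, and COX20, an assembly factor of COX2, by 0.67 in the libraries labelled SNRPD2KO. The structural subunits COX7B and COX6C fell by 0.60 and 0.55, and by 0.59 and 0.39. COX8A and COX5A rose by 0.48 and 0.38 in the libraries labelled SNRPD2KO. COX7A2L, which joins supercomplexes, rose by 0.61 and 0.57. Its share of the COX7A counts per kb was 10.7% ± 1.10 and 11.2% ± 0.666, against 7.70% ± 0.225 in Ctrl (SD, n = 3). NDUFA4L2 rose by 1.42 and 0.99, at 2.25 CPM or less throughout, and its PUS7KO call was lost without PUS7KO replicate 2 or 3 or any 1 Ctrl library. COX4I1, COX7A2, COX6A1 and NDUFA4 had no call in either HEK293T comparison.

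In complex V, the c-ring genes changed unequally. ATP5MC1, ATP5MC2 and ATP5MC3 encode the same mature c subunit with different targeting peptides. ATP5MC1 stood at 120.2, 110.8 and 88.1 CPM, 99.6, 74.7 and 88.3 in PUS7KO and 62.8, 59.5 and 59.6 in Ctrl. It rose by 0.81 ± 0.12 (adjusted p = 2.3e-05) and 0.53 ± 0.12 (0.0013). ATP5MC3 stood at 86.7, 88.4 and 80.4, then 76.5, 78.7 and 80.3, against 128.6, 117.9 and 116.8. It fell by 0.51 ± 0.08 (4.6e-05) and 0.63 ± 0.08 (7.5e-06). ATP5MC2 had no call in either. As a share of the counts per kb of the 3 genes, ATP5MC1 was 68.1% ± 1.85 and 65.2% ± 1.90 against 54.5% ± 0.666 in Ctrl, and ATP5MC3 was 6.17% ± 0.559 and 6.63% ± 0.855 against 12.2% ± 0.208 (SD, n = 3). The order of the 3 shares rests on transcript lengths of 614, 1950 and 5484 bases for ATP5MC1, ATP5MC2 and ATP5MC3. Without the lengths, mean Ctrl CPM ran the other way, at 60.6, 117.7 and 121.1. ATP5PO of the peripheral stalk rose by 0.60 and 0.61, ATP5F1D of the central stalk by 0.86 and 0.49, and ATP5MG and ATP5MK, small membrane subunits, fell by 0.52 and 0.44, and by 0.66 and 0.37. The PUS7KO call of ATP5F1D (adjusted p = 0.037) was lost without PUS7KO replicate 2 or 3 or Ctrl replicate 1 or 2.

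**Figure D3:**
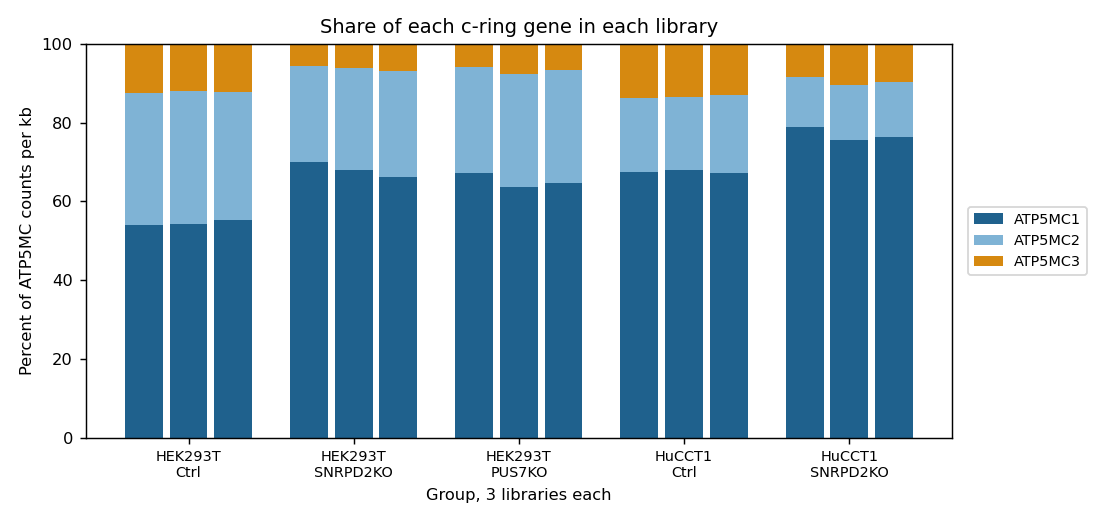
Share of each c-ring gene among ATP5MC counts per kb in every library (bars stacked to 100%), in 5 groups of 3. ATP5MC3 took 12.2% of HEK293T Ctrl, 6.17% of the libraries labelled SNRPD2KO and 6.63% of PUS7KO on average. The order of the shares rests on the longest annotated transcript of each gene.

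Set directly against each other, the libraries labelled SNRPD2KO and PUS7KO gave 0 members higher and 0 lower of 89 by edgeR, against 1.57% and 3.20% of all genes (4.77% either). At an unadjusted p under 0.05, 16 members were higher and 5 lower, where 1653 and 1882 of the 15882 genes were. The smallest adjusted p over members was 0.056, and 86 of the 89 differed by less than 0.5 on the log2 scale. DESeq2 called 4 higher and 0 lower. Without SNRPD2KO replicate 3 the edgeR count of members higher was 14. The share of all genes called by DESeq2, or without that library, is not given here. These counts are therefore not read against a background. That a member did not pass does not show that the 2 groups are alike.

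Transcript GC content went with the HEK293T differences. The median GC of the members higher in the libraries labelled SNRPD2KO was 51.3%, and of those lower it was 43.1%. Across the 89 members, Spearman's rho between log2 fold change and GC was 0.54, against 0.37 over all genes tested; these are genes of the same 6 libraries and not independent. In PUS7KO rho was 0.42, against 0.18 over all genes, and in HuCCT1 it was -0.03, against -0.02. For the difference in SNRPD2KO response between the lines, HuCCT1 minus HEK293T, rho was -0.56 over the 94 members in that fit, against -0.25 over all genes. With the GC trend removed, 32 members were higher and 24 lower in the HEK293T libraries labelled SNRPD2KO. The medians of complexes I to V became 0.03, 0.14, 0.07, 0.08 and 0.15, and complex IV had 7 higher and 8 lower. In PUS7KO the medians became -0.09, -0.11, 0.03, -0.05 and -0.01, and complex V had 3 higher and 4 lower. Of all genes tested in that comparison, 24.7% were then higher and 25.8% lower. The HuCCT1 medians became -0.17, -0.09, 0.01, -0.17 and -0.04. NDUFV1, NDUFS7, NDUFS8, SDHA, UQCRC1, ATP5MC1 and ATP5MC3 kept their HEK293T calls, while SDHD, UQCRB, COX8A, ATP5F1B and ATP5F1D, among 9 members, lost theirs in the libraries labelled SNRPD2KO. The HEK293T SNRPD2KO value of NDUFA5, -0.02 as reported, became 0.65. The part of GC in these differences was not tested further.

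HuCCT1 was compared with the question of how the chain genes differ in a bile duct cancer line with the same labelled knockout. Of 93 members tested, 17 were higher and 31 lower in the libraries labelled SNRPD2KO (18.3% and 33.3%), where 28.8% and 28.4% of the 15007 genes tested were (57.2% either). For protein-coding genes alone these shares were 32.7% and 31.1%, so the members' share lower is near that background and their share higher is below it. The count of members higher was 11 without Ctrl replicate 2 and 21 without SNRPD2KO replicate 1. The members' median was -0.10 and that of all genes 0.00. It was -0.02 without SNRPD2KO replicate 1 and -0.19 without SNRPD2KO replicate 3. By complex the counts were 9 higher and 15 lower of 41 for I, 1 and 2 of 4 for II, 3 and 3 of 9 for III, 1 and 7 of 22 for IV, and 3 and 4 of 17 for V, with medians of -0.12, -0.12, -0.05, -0.16 and -0.01. The summed CPM of all members was 7843.4 ± 766.1 in the libraries labelled SNRPD2KO and 8498.8 ± 229.4 in Ctrl (SD, n = 3), and the ranges overlapped. Complex I summed to 2129.6 to 2494.9 CPM in the libraries labelled SNRPD2KO and 2550.3 to 2669.0 in Ctrl, without overlap. The ranges of complexes II, III, IV and V overlapped.

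NDUFV1 was at 131.7, 142.9 and 152.7 CPM in the HuCCT1 libraries labelled SNRPD2KO and at 109.8, 108.7 and 107.7 in Ctrl, a log2 difference of 0.39 ± 0.06 (adjusted p = 2.8e-04). NDUFS7 and NDUFS8 rose by 0.34 and 0.27. With the GC trend removed, NDUFS7 and NDUFS8 lost their calls, and NDUFS7 lost its also without Ctrl replicate 2. SDHA rose by 0.58 ± 0.08 (5.4e-05), from 37.8, 38.2 and 40.1 to 52.0, 61.7 and 60.3 CPM. SDHD fell by 0.33 (0.021), a call lost without SNRPD2KO replicate 3 or Ctrl replicate 1. SDHB fell by 0.18 (0.029), a call lost without SNRPD2KO replicate 2 or 3 or Ctrl replicate 3, and SDHC had no call. UQCRC1 rose by 0.75 ± 0.07 (2.5e-06), from 108.6, 98.3 and 97.2 to 164.4, 166.2 and 182.6. ATP5PO rose by 0.50, and ATP5MC2 and ATP5MC3 both fell by 0.44. ATP5MC1 rose by 0.24, a call lost without SNRPD2KO replicate 3 or Ctrl replicate 2 or 3. The ATP5MC1 share of the c-ring counts per kb was 77.0% ± 1.63 against 67.5% ± 0.404 (SD, n = 3), and those of ATP5MC2 were 13.6% ± 0.635 against 19.2% ± 0.700. NDUFA5, a peripheral arm subunit of complex I, rose by 0.84, from 12.7, 14.7 and 14.1 to 25.9, 24.8 and 23.9 CPM.

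The largest falls among the members tested in HuCCT1 were in NDUFAB1 and in assembly factors. NDUFAB1 was at 16.4, 20.8 and 19.6 CPM against 44.1, 40.8 and 41.3, a fall of 1.15 ± 0.09 (adjusted p = 1.6e-06). COX10, which makes heme for complex IV, was at 32.3, 32.9 and 33.5 against 69.6, 70.5 and 66.5, a fall of 1.07 ± 0.06 (1.1e-07). COX19 fell by 1.08, from 37.5, 37.9 and 41.7 to 16.5, 20.1 and 18.9. NDUFAF5, NDUFAF1 and NDUFAF4 fell by 0.92, 0.79 and 0.71. Of 8 assembly factors of complex I, 5 were lower and 1 was higher. In complex IV, 4 of 11 subunits fell and 0 rose, COX5B, COX6A1 and COX6B1 by 0.38, 0.41 and 0.37. COX20 was the complex IV member that rose, at 71.3, 73.4 and 69.2 CPM against a Ctrl mean of 27.6 ± 1.20 (SD, n = 3), a rise of 1.37 ± 0.06 (3.4e-08). UQCRB rose by 0.55 (0.0011). UQCRC2 gave 3.77 ± 1.19 (adjusted p = 0.018) with groups that overlapped, and 0.74 (adjusted p = 0.25) without SNRPD2KO replicate 1. Its call was also lost without Ctrl replicate 1 or 3 (0.057 and 0.055) and by limma voom (0.23).

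**Figure D4:**
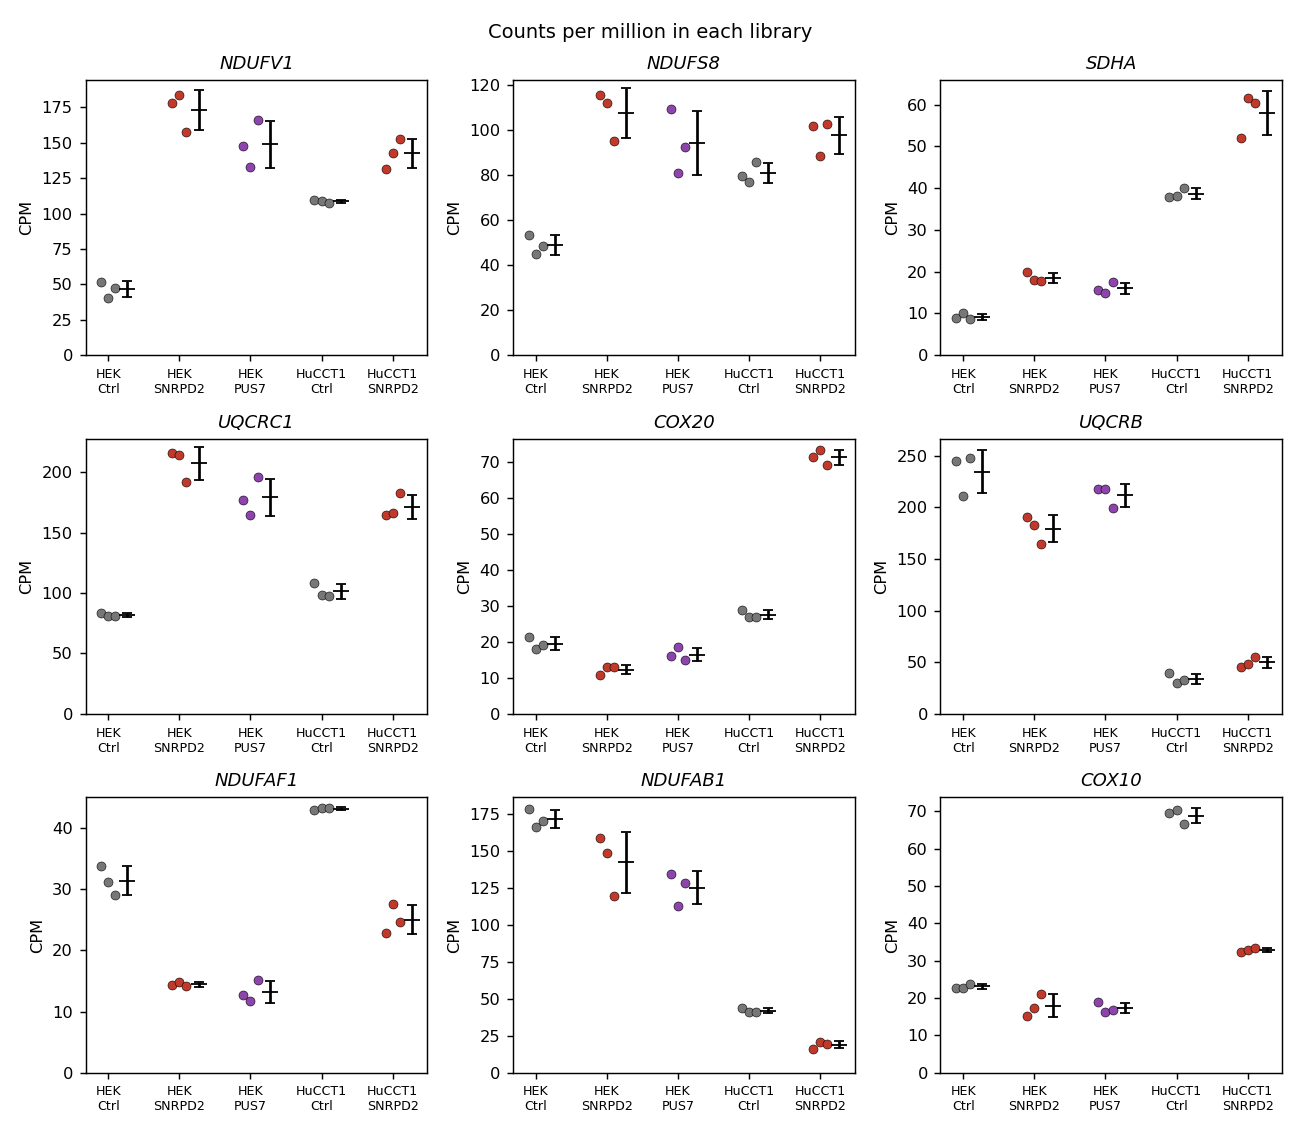
CPM of 9 members in each library (points), with the group mean and SD beside them. NDUFV1, NDUFS8, SDHA and UQCRC1 lie above Ctrl in every knockout-labelled group, and COX20 and UQCRB lie below Ctrl in HEK293T and above it in HuCCT1 for SNRPD2KO.

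The response to the SNRPD2KO label was compared between the lines in a model with an interaction term over 12 libraries. Of the 88 members tested in each line, 11 had a response higher in HuCCT1 and 35 a response lower, with a median difference of -0.24. All 94 members in the joint fit gave 11 higher and 36 lower (11.7% and 38.3%). Of the 17617 genes in that fit, tested in each line alone or not, 19.8% were higher and 20.9% lower (40.7% either). For protein-coding genes alone the shares were 22.3% and 24.7%. By complex, 4 of 39 were higher and 17 lower in I, 0 and 1 of 3 in II, 1 and 3 of 9 in III, 5 and 8 of 20 in IV, and 1 and 6 of 17 in V. NDUFV1 had the lowest of these in the core, -1.55 ± 0.12 (adjusted p = 3.6e-08), being higher in both lines but less so in HuCCT1. COX20 differed by 1.99 ± 0.13 (6.7e-09) and UQCRB by 0.89 ± 0.14 (7.5e-05), each lower in HEK293T and higher in HuCCT1. With the GC trend removed, UQCRB lost that difference and its HEK293T value became 0.07.

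Of the 31 members higher in HEK293T among the 88, 13 (41.9%) were also higher in HuCCT1, or 76.5% of its 17. Over all 12708 genes tested in both lines the shares were 44.3% and 41.3%. Of the 21 lower in HEK293T, 8 (38.1%) were lower in HuCCT1, or 27.6% of its 29, against 41.3% and 38.9% of all genes. COX15, COX5A, ATP5F1B, NDUFA8, UQCRFS1 and NDUFA13 were higher in HEK293T and lower in HuCCT1, 6 of the 31 (19.4%) and 20.7% of the 29, against 19.5% and 18.5% of all genes. The reverse held for COX20 and UQCRB, 2 of the 21 (9.52%) and 11.8% of the 17, against 23.1% and 21.3%. The HuCCT1 calls of COX15 and COX5A were lost without SNRPD2KO replicate 1 or Ctrl replicate 1, among others, that of NDUFA13 without Ctrl replicate 1, and that of UQCRFS1 without SNRPD2KO replicate 2 or Ctrl replicate 3. The HEK293T call of NDUFA8 was lost without SNRPD2KO replicate 1 or Ctrl replicate 2. With the GC trend removed, the HEK293T calls of ATP5F1B, NDUFA8 and UQCRB and the HuCCT1 call of COX5A were lost. For ATP5F1B the HEK293T values were 720.6, 704.8 and 630.4 against 564.2, 556.5 and 589.1 CPM, and the HuCCT1 values 490.7, 533.3 and 554.2 against 628.7, 627.6 and 671.9.

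**Figure D5:**
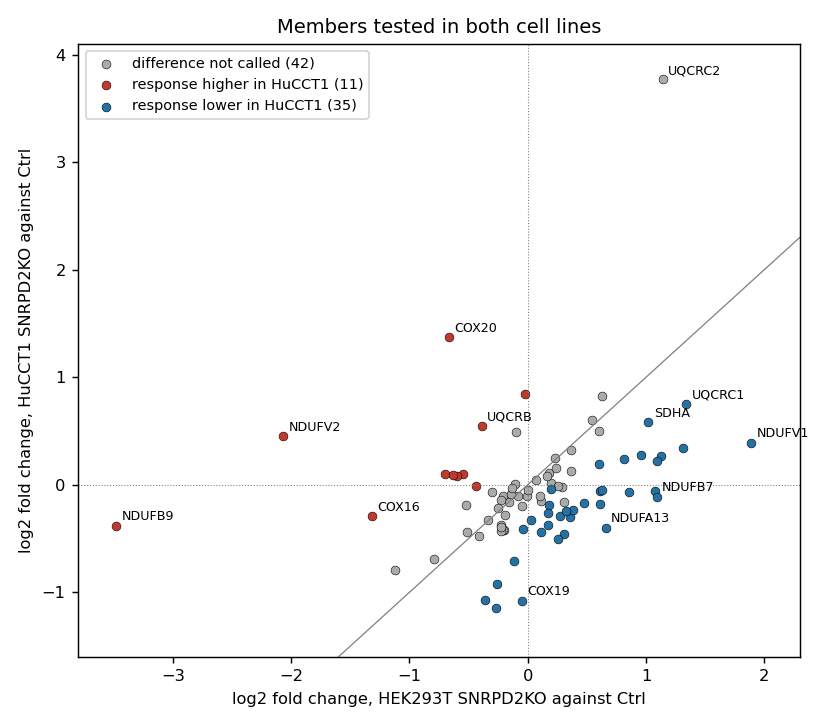
Log2 fold change of the 88 members tested in both lines, HEK293T (x) against HuCCT1 (y), with the line of equal response. Of these members, 35 (blue) had a response lower in HuCCT1, 11 (red) one that was higher, and 42 no call.

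The other genes of the pathway came from lists grouped by role. Their counts, with those of the regulators and mitochondrially encoded genes, stand beside the shares of all genes tested that were higher and lower: 26.9% and 26.4% in the HEK293T libraries labelled SNRPD2KO, 25.6% and 23.8% in PUS7KO, and 28.8% and 28.4% in HuCCT1. Of 6 electron carriers and other nuclear chain subunits, 5 were higher and 0 lower in both HEK293T comparisons, and 3 and 3 in HuCCT1. Of 10 genes of coenzyme Q synthesis tested, 7 were higher and 0 lower in both HEK293T comparisons, and 6 were higher and 2 lower in HuCCT1. COQ9 rose by 1.33 and 1.13 in HEK293T and by 0.49 in HuCCT1. CYC1, cytochrome c1 of complex III, rose by 1.13, 0.78 and 0.28, and ETFB, which feeds electrons from fatty acid oxidation, by 1.22, 1.23 and 0.49. Of 39 assembly factors with other names, 17 were higher and 4 lower in the HEK293T libraries labelled SNRPD2KO, 16 and 2 in PUS7KO, and 8 and 17 in HuCCT1. SDHAF4 rose by 1.79 and 1.93 in HEK293T (0.14, adjusted p = 0.76, in HuCCT1), and TMEM242 fell by 1.61, 1.14 and, in HuCCT1, 1.26. Of 14 tricarboxylic acid cycle genes, 8 and 2, 8 and 3, and 6 and 5 were higher and lower. IDH2 rose by 1.32, 1.48 and 0.65.

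Of 14 regulators of mitochondrial gene expression, 3 were higher and 3 lower in the HEK293T libraries labelled SNRPD2KO and 2 and 3 in PUS7KO, and 2 and 7 of 13 in HuCCT1. TFB1M, a mitochondrial ribosomal RNA methyltransferase, rose by 1.23, 1.35 and 1.58, and TFAM, the mitochondrial DNA packaging factor, fell by 1.19, 0.68 and 0.53. The 13 mitochondrially encoded subunits could be read in HuCCT1 alone. There 10 of 13 fell and 0 rose, with a median of -0.56, and MT-ND1 fell by 0.95. Mitochondrially encoded mRNAs took 1.2%, 0.806% and 1.2% of counts in the libraries labelled SNRPD2KO and 1.57%, 1.51% and 1.64% in Ctrl, so that the groups did not overlap. Their part in the members' values was not tested. In bulk RNA, fewer cells of a kind and less RNA per cell cannot be told apart.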

How the data were processed

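Total RNA of 9 HEK293T and 6 HuCCT1 libraries was sequenced from a stranded, ribosome-depleted kit, per the labels' protocols. The authors deposited raw gene counts, as whole numbers with no scaling, in 1 table for HEK293T and 1 for HuCCT1. The submitters' processing notes name cutadapt 4.2, HISAT2 2.2.1 and RSEM with hg38; the annotation release and the strand setting of the counting are not given in the sources used here. Of the 100 members, 63 overlap another gene and 54 have named pseudogene copies (185 in all), so that reads could be split between them. COX20 (1432 HEK293T counts) overlaps HNRNPU (50538) on the opposite strand, and NDUFA4L2 (128) overlaps SHMT2 (31293) there. On the same strand, 40 members overlap another gene. Among them, COX16 (844 HEK293T counts) overlaps SYNJ2BP (3350), COX19 (1087) overlaps ADAP1 (951) and NDUFS3 (0) overlaps PTPMT1 (4941). Whether the counts of members hold or lose reads through such neighbours was not tested. Groups came from the labels.

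Counts were tested in R 4.3.3 with edgeR 4.0.16 (quasi-likelihood, TMM factors, default filter with a minimum count of 10 and total of 15), two-sided, with Benjamini-Hochberg adjustment over all genes tested at 0.05. HEK293T used 9 libraries, HuCCT1 6 and the interaction 12. CPM are scaled by TMM factors. Alternatives were RLE and upper quartile factors, protein-coding genes alone, no filter and a minimum of 30, DESeq2 1.42.0, limma 3.58.1 with voom, removal of a GC trend, a replicate block, the groups alone, NDUFA4 and NDUFA4L2 counted with complex I, and each library left out. On simulated counts for the HEK293T SNRPD2KO comparison (15882 genes), 64.2% of 67 genes changed 2-fold were recovered, and 0.0784% of unchanged genes were called. The simulation changed a far smaller share of genes than the 53.3% called in the data, so these rates do not carry over to the data. Lengths and GC came from GENCODE v29. Promoters came from RefSeq (GRCh38.p14), and figures were drawn with matplotlib 3.10.9.

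The members and gene lists were chosen with earlier results of these data known. Named members are, in each comparison and complex, those past the threshold with the largest fold changes at 5 CPM or more in the higher group (up to 4 a direction in complexes I, IV and V, and 2 in II and III), the SDH genes, those differing between lines, the isoform sets and the targeted genes; others named were chosen after their values were seen. The result of 1 member is not reported here.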

Additional observations from a re-analysis of the deposited data

Results flagged for a closer look

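The response to the SNRPD2KO label differed between the lines by the interaction term for 46 of 88 members, 11 with a response higher and 35 with one lower in HuCCT1 than in HEK293T (edgeR quasi-likelihood, 6 libraries a line). Of all 17617 genes in that fit, tested in each line alone or not, 40.7% differed, 19.8% higher and 20.9% lower. For protein-coding genes alone the shares were 22.3% higher and 24.7% lower. The members that led in each direction are given as log2 differences, HuCCT1 minus HEK293T. Higher were NDUFB9 (3.04, adjusted p = 1.0e-05), NDUFV2 (2.48, 0.0046), COX20 (1.99, 6.7e-09), COX16 (0.99, 4.8e-04) and UQCRB (0.89, 7.5e-05). Lower were NDUFV1 (-1.55, 3.6e-08), NDUFB7 (-1.24, 7.3e-07), NDUFAF3 (-1.18, 1.2e-06), NDUFA13 (-1.10, 1.3e-04) and COX19 (-1.07, 6.1e-05). NDUFB9 and NDUFV2 rest on few HEK293T reads, at most 6.62 and 2.6 CPM in any library.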

How the results depend on the processing

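The counts of members in this section are given without the share of all genes called in the same fit. Counts called over all members stayed within 1.5 times under the alternatives tried except the following. For HEK293T SNRPD2KO against PUS7KO, members higher went from 0 to 2 with protein-coding genes alone, 6 with no filter, 4 with DESeq2 and 2 with the replicate block, and from 0 to 14 over the fits that left out 1 library (14 without SNRPD2KO replicate 3, 2 without PUS7KO replicate 1); members lower went to 2 with protein-coding genes alone and 2 with no filter. In HuCCT1, members higher ranged from 11 (without Ctrl replicate 2) to 21 over the fits that left out 1 library. For the interaction, members higher fell from 11 to 7 with the replicate block and GC trend removed. Changes of direction were listed for named members with a call in the main fit or the alternative. With the GC trend removed, alone or with the block, these were NDUFA5 (0.65), NDUFAF4 (0.47) and UQCRB (0.07) in HEK293T SNRPD2KO against Ctrl. In the interaction they were NDUFA4 (-0.40) and NDUFA5 (-0.10). Other changes of sign are not listed, and the cause was not tested. In HuCCT1 that setting also took the calls of NDUFS8, NDUFS7, SDHB, COX5A and UQCRHL. Same-numbered libraries' deviations correlated between -0.09 and 0.04, so no shared effect of replicate number was seen. The labels do not say whether samples were prepared in pairs, and these correlations cannot show it. Depth limits members under about 1 CPM.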
